A study of Mus musculus with 2 samples.

Results

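The strong untreated-only peaks are autosomal ATAC-seq sites that were called with high confidence in untreated mouse macrophages and had no counterpart in macrophages given R848. They were selected on 2 measured values: a −log10 q of at least 5 in the untreated list, where q is the caller's false discovery estimate at the peak's summit, and the absence of any R848 peak sharing 1 bp or more. Of 77060 untreated peaks, 4522 on chromosomes 1 to 19 reached that strength, and 1625 of these had no R848 overlap, which is 35.9% of the strong peaks. Over all 68741 autosomal untreated peaks the share without an R848 overlap was 83.5%. Because the strength and the overlap chose the peaks, both are given here as description and nothing is read from them.

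The cells were bone marrow-derived macrophages (BMDMs) of wild-type genotype, grown from marrow in medium with 20 ng/ml recombinant M-CSF. The untreated group was 1 library at 0 h, and the R848 group was 1 library, made after 2 h with R848 at 100 ng/ml. Strain, age, sex and the number of animals are not given in the sources used here, and no library was replicated, so no difference was tested. Intervals are 95% Wilson intervals of a share of peaks. They account for counting error alone and not for variation between cultures. In such bulk libraries a site open in fewer cells and a site less open in each cell cannot be told apart.

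Macrophages depend on M-CSF, which signals through the receptor encoded by Csf1r, and their enhancers are opened by PU.1 together with factors such as C/EBP and AP-1. R848 (resiquimod) is a small molecule that activates the endosomal Toll-like receptor TLR7 and through it NF-kB and MAP kinases. In ATAC-seq the Tn5 transposase cuts accessible DNA, which is typically found at promoters, where transcription starts, and at enhancers, which lie within introns or between genes. Active promoters tend to be open in most states of a cell, while sites that open or close with a stimulus are mostly enhancers.

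Sequence was read where the peaks met a promoter window of the RefSeq table (GRCm38.p6), which runs from 250 bases before to 50 bases after a gene's start. Only 17 windows met one of the peaks, and 11 held a summit. The 250 bases before the start are shown first for 2 protein-coding genes whose upstream bases held no other annotated gene, because such promoters were rare among these peaks. Capitals mark matches to the searched motifs. Zfp967, a zinc finger gene (chr2:176520754-176521003, plus strand), had a CCAAT box on each strand and an ETS match. Wdr5, which encodes a core subunit of histone methyltransferase complexes (chr2:27514897-27515146, plus strand), had a RUNX match and a GC box. The peak covered 243 of the 250 bases of Zfp967 and 190 of those of Wdr5, whose GC box lay outside it. Both sequences are written 5′ to 3′ on the strand of the gene.
Zfp967: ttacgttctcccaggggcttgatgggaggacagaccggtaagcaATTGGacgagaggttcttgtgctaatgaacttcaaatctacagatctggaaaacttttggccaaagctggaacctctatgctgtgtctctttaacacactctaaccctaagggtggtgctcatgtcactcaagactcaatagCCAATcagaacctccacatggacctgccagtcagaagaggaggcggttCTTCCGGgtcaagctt
Wdr5: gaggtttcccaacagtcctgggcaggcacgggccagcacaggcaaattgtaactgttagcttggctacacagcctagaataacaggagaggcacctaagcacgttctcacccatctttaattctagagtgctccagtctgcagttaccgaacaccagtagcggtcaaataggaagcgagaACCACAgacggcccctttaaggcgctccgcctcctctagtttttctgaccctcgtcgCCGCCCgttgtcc

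The windows of 3 long non-coding RNA genes are shown because they read differently, and here the capitals mark the longest uninterrupted tandem repeat. Gm46264 (chr11:117463707-117463956, minus strand) had 174 bases of a 6-base unit. 4930465M20Rik (chr12:107735489-107735738, minus strand) had 116 bases of a 24-base unit. Gm36734 (chr13:71020422-71020671, minus strand) had 155 bases of a 59-base unit. Of the 250 bases shown, the peak covered 219, 189 and 54, in that order, so most of those of Gm36734 lay outside its peak. At Gm40055, which also had a repeat but is not shown, the peak covered 66.
Gm46264: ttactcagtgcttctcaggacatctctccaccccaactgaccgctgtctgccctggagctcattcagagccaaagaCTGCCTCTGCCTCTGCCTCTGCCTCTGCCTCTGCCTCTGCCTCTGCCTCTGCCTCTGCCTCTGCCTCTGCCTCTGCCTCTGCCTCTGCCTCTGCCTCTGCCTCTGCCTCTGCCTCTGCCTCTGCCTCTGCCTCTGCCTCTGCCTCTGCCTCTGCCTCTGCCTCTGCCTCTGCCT
4930465M20Rik: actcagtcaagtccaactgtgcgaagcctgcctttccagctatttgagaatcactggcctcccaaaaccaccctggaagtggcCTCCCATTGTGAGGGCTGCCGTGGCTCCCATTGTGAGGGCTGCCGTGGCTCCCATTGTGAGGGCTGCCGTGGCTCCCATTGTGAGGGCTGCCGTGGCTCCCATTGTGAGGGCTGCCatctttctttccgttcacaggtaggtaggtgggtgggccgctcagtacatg
Gm36734: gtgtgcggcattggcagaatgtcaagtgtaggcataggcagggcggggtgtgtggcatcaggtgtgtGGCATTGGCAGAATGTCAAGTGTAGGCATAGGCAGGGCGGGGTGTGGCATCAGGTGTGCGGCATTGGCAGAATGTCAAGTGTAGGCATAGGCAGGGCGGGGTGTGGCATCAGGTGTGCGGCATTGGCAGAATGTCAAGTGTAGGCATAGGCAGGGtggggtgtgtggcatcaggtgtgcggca

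Tandem repeats were a feature that the choice of peaks did not use. A perfect repeat of at least 60 bases, with a unit of up to 75 bases, was found in 5 of the 17 windows met by a strong untreated-only peak (29.4%, interval 13.3 to 53.1). Of the 11 windows that held a summit it was 18.2%, and the sets compared next were not narrowed to summits. The same search found one in 6 of 1833 windows met by strong untreated peaks that an R848 peak overlapped (0.327%, interval 0.150 to 0.712). Among strong R848-only peaks it was 2 of 567 windows (0.353%), among weaker untreated-only peaks 9 of 591 (1.52%), and among all 31396 autosomal windows 129 (0.411%). The 5 windows belonged to Gm46264, 4930465M20Rik, Gm36734, Gm40055 and Gm52873, all long non-coding RNA genes, whose repeat stretches in the full window measured 116 to 221 bases. The other member windows were 11 of protein-coding genes, none with such a repeat, and 1 of the non-coding gene Gm41519. The shares of the compared sets were not split by kind of gene, so the part of non-coding genes in this contrast was not tested. Seen from the windows, a strong untreated-only peak lay at 3.88% of those with a repeat (5 of 129) and at 0.0384% of those without one (12 of 31267). An untreated peak of any strength lay at similar shares of both, 19.4% and 18.7%. A weaker untreated-only peak lay at 6.98% of windows with a repeat and at 1.86% of those without. For an R848 peak of any strength the shares were 12.4% and 25.8%, and for a strong R848-only peak 1.55% and 1.81%. How the reads in repeats were placed by the aligner is not given in the sources used here, and its part in these calls was not tested. The repeat search was added after the sequences had been seen, and it covers only the few peaks at annotated starts, since sequence elsewhere was not used here.

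Of the 17 windows, 14 held at least 1 of the 14 motifs searched. The same count over all autosomal windows is not given here, so nothing is read from it. The GC box (GGGCGG, bound by SP and KLF factors) was in 7 of 17 windows (41.2%), against 80.7% of windows met by overlapped peaks and 36.0% of all autosomal windows. The CCAAT box (CCAAT, bound by NF-Y) was in 9 of 17 (52.9%), against 50.6% of windows met by overlapped peaks and 37.3% of all windows. ETS matches (CCGGAAG) were in 2 windows, and the longer PU.1 form (GAGGAAGT) was in 1, that of Elk4, against 2827 and 1020 of all 31396 windows. E-boxes (CACGTG), RUNX (TGTGGT) and NRF1 matches (GCGCNTGCG) were in 2 windows each, against 7.14%, 16.7% and 6.37% of all windows. NF-kB (GGGANNNCC), C/EBP (TTNNGCAA) and YY1 (AAGATGGCG) matches were in 1 each, against 18.8%, 10.9% and 1.39%. No window held TATAAA, the AP-1 letters TGANTCA, the CRE letters TGACGTCA or the IRF letters GAAANNGAA, which were in 13.6%, 7.84%, 1.83% and 8.52% of all windows. Each motif was searched on both strands, and the PU.1 and ETS letters can overlap. Matches were counted over the whole window that a peak met. Some therefore lay outside the peak, as the GC box of Wdr5 did, or within a tandem repeat, as at Gm36734. The median window held 16 CG pairs, against 26 for windows met by overlapped peaks and 7 over all windows.

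The peaks were rarely at the ends of genes. A summit was within 1 kb of an end of a protein-coding gene, its start or its last base, in 38 of 1625 peaks (2.34%, interval 1.71 to 3.19). For the 2897 strong untreated peaks with an R848 overlap the share was 49.9% (48.1 to 51.7), and for the 1323 strong R848-only peaks it was 36.9% (34.3 to 39.5). These R848-only peaks were 21.5% of the 6147 strong autosomal R848 peaks. Of all autosomal bases, 3.07% lie within 1 kb of a gene end. The peaks under study were thus at gene ends no more often than bases are, while the other strong peaks were there far more often. Position is not independent of the choice of peaks. R848 peaks were often at gene ends, and an untreated peak that any of them overlapped was left out. The contrasts with overlapped and R848-only peaks, here and below, are therefore given as description.

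The same held at longer distances. Within 10 kb of a gene end lay 20.3% of the peaks and 21.3% of bases, and within 100 kb 66.0% of the peaks and 63.7% of bases. The summit was inside a gene in 40.6% of the peaks (38.2 to 43.0), and genes cover 40.4% of bases. Strong overlapped peaks were inside genes about as often, at 43.4%, but 13.7% of them were inside a gene and more than 10 kb from its ends, against 30.2% here. More than 100 kb from any gene end and outside genes lay 427 of the peaks (26.3%), against 11.4% of overlapped peaks and 6.12% of R848-only peaks. The median distance to a gene end was 42758 bp, against 1027 bp for overlapped and 5823 bp for R848-only peaks. The gene table used here has no exons, so peaks inside genes were not placed in exons or introns.

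**Figure D1:**
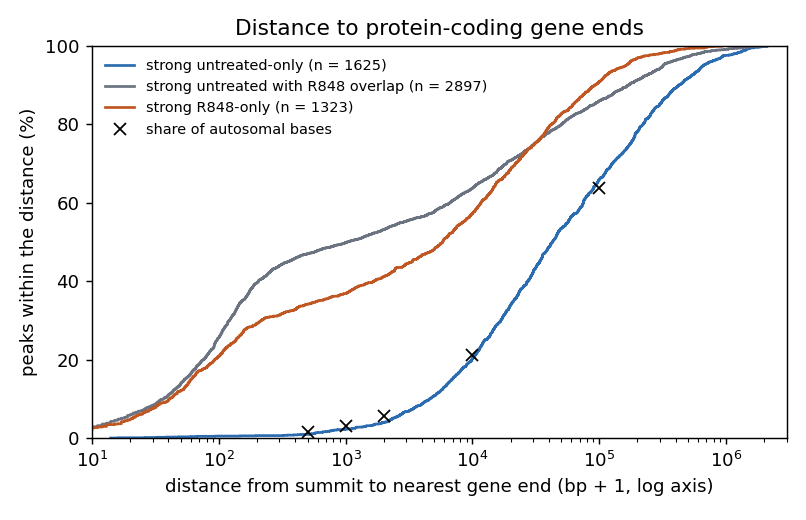
Cumulative share of peaks (vertical axis, percent) by distance from the summit to the nearest end of a protein-coding gene (horizontal axis, bp + 1, log scale), for strong untreated-only peaks, strong untreated peaks with an R848 overlap and strong R848-only peaks. Crosses give the share of autosomal bases within 500 bp to 100 kb, and the untreated-only line runs close to them, with 2.34% of peaks within 1 kb, where the other lines stand at 49.9% and 36.9%.

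The difference in distance was present at nearly every strength. In the class with a −log10 q of 5 to 6, 2.13% of untreated-only and 52.9% of overlapped peaks were within 1 kb of a gene end. From 6 to 8 the shares were 2.36% and 58.4%, from 8 to 12 they were 1.81% and 61.6%, and from 12 to 20 they were 4.29% and 49.6%. At 20 or more, 1 of 48 untreated-only peaks (2.08%, interval 0.369 to 10.9) and 26 of 388 overlapped peaks (6.70%, 4.61 to 9.64) were near a gene end, and these intervals overlap. Of the untreated-only peaks below the limit of 5, 2.49% were near gene ends.

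As a description of the choice, the 1625 peaks comprised 609 with a −log10 q of 5 to 6, 551 from 6 to 8, 277 from 8 to 12, 140 from 12 to 20 and 48 at 20 or more. At the limit itself, the lowest peaks inside lay nearest to Pde7b, Dip2a, Pigh and Sema4d, each with a −log10 q of 5.00 and 11 tags. Just outside were untreated-only peaks nearest to Adcyap1, Sorcs1, Btbd3 and Trpm3, with 4.99 and 12 to 16 tags.

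The pileup, the number of overlapping tags at a summit, was recovered for each peak from the deposited fold and p. The strong untreated-only peaks had a median of 13 tags (lowest 11, highest 1437), and 1234 of 1625 (75.9%) had 11 to 15. Their median background was 0.980 tags, and 48.2% stood at the library-wide background of 0.968. The R848 library had a background of 1.36 tags, a ratio of 1.40, and at that background its peaks were called from 5 tags upward. Scaled by that ratio, 13 tags correspond to 18.3 in the R848 library. Where an R848 peak did overlap a strong untreated peak, the strongest overlapping one had a median of 21 tags, with 5 the lowest. The pileup of the R848 library at sites without a call is not in its list and is not known here.

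A few peaks had far more tags. The strongest by q, chr1:12644611-12644991, lay 47401 bp outside Sulf1, an extracellular heparan sulfate sulfatase gene, with a fold of 24.1, a −log10 q of 77.5 and 70 tags over a background of 1.94. By the same measure the highest strong R848-only peak had a −log10 q of 27.6, and its list's highest fold for such peaks was 11.2. Next among peaks of ordinary background was chr6:10186151-10186611, with 54 tags and a fold of 21.5, 936813 bp from the nearest gene end, that of Nxph1. The peak chr14:107075151-107075511, 939470 bp from Trim52, had 41 tags and a fold of 20.4. Both lay too far from a gene to be assigned to one, for which 100 kb was the limit.

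Several of the strongest peaks were inside genes. The peak in Cdc14b, a dual-specificity phosphatase gene, had 41 tags and a fold of 19.1 (chr13:64272321-64272595), 2526 bp from the gene's nearer end. In Trio, a guanine nucleotide exchange factor gene, 43 tags gave a fold of 16.8 (chr15:27741801-27742306), and in Mdm2, the ubiquitin ligase gene that restrains p53, 41 tags gave a fold of 16.8 as well (chr10:117693207-117693692). The Myo7a peak, at an unconventional myosin gene, had a fold of 15.4, the Dpm1 peak, at a gene of dolichol-phosphate mannose synthesis, 13.9, the Plxdc2 peak 13.7 and the Adgrl3 peak, at a latrophilin gene, 14.4. The Adgrl3 peak was 201174 bp from the nearest gene end, so it was inside the gene without being assigned to it.

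Outside genes, the peak 40967 bp from Trib1 had a fold of 15.6 (chr15:59697898-59698233). Trib1 encodes a pseudokinase that directs the degradation of C/EBPα. The Atp9a, Trub1 and Gapt peaks had folds of 14.5, 13.9 and 14.8, and lay 15086, 14945 and 11603 bp from those genes, a flippase gene, a pseudouridine synthase gene and a gene of a Grb2-binding membrane adaptor. Farther off were the peaks nearest to Cdh8 (fold 17.9), N4bp1 (15.8), Tnks (15.0) and Mrm1 (13.8), at 714305, 142629, 169258 and 135152 bp. Of the 20 strongest, 9 were more than 100 kb from any gene end, 7 were inside a gene and 0 were within 1 kb of a gene end. All but 2 of the 20 had a background under 2 tags.

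Those 2 stood on a very high background. The peak chr9:3030563-3030871, nearest to Alkbh8 at 304549 bp, had 1437 tags over 880, a fold of 1.63. The peak chr14:19419165-19419364, nearest to Gm2244 at 114474 bp, had 1086 tags over 681, a fold of 1.59. An R848 peak lay 681 bp from the first and 152 bp from the second. Across all 1625 peaks, 29 (1.78%) had a background of at least 3 tags, against 8.25% of the overlapped peaks.

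**Figure D2:**
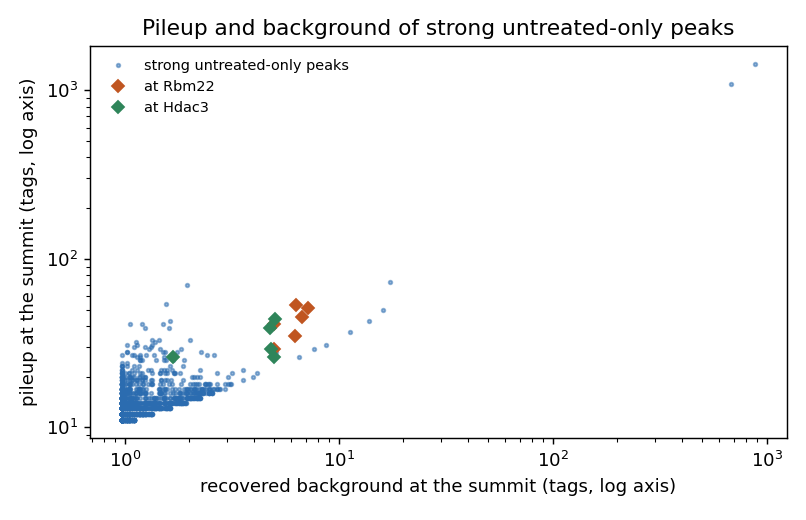
Pileup at the summit (vertical axis, tags, log scale) against the recovered background (horizontal axis, tags, log scale) for each of the 1625 strong untreated-only peaks, with those at Rbm22 and Hdac3 as diamonds. Most points lie at 11 to 15 tags near the background of 0.968, the Rbm22 peaks lie at a background of 4.96 to 7.18, and 2 peaks lie above 600 tags of background.

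The peaks were narrower than strong peaks with an R848 overlap. Their median width was 370 bp, against 473 bp for overlapped peaks and 255 bp for untreated peaks of any strength, and 15.8% were at least 600 bp wide, against 28.7%. Within classes the medians were 367 against 430.5 bp from 5 to 6, 365 against 451.5 bp from 6 to 8, 377 against 526 bp from 8 to 12, 373 against 521 bp from 12 to 20, and 381 against 433 bp at 20 or more. The untreated-only median thus varied by less than 20 bp across classes, although the median pileup went from 11 to 29 tags. The quartiles of the widths overlapped in each class. Width is not independent of the choice of peaks, since a wider peak shares 1 bp with an R848 peak more easily. Widths were not compared at equal distances from gene ends.

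**Figure D3:**
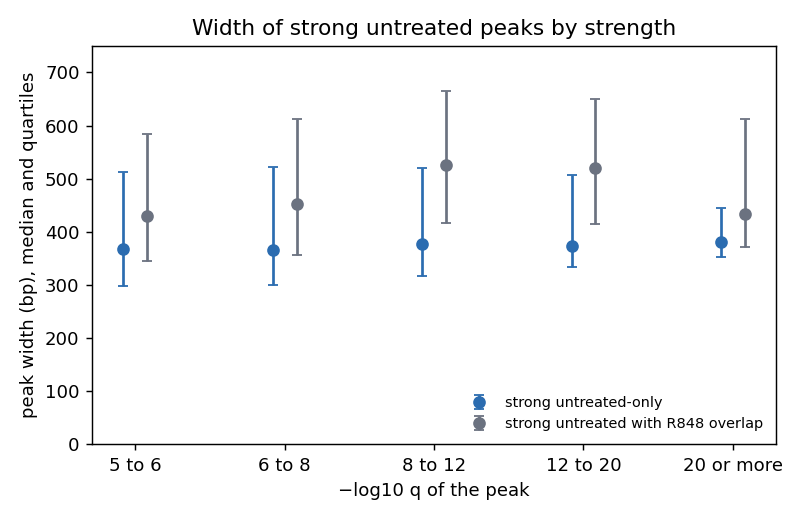
Width of strong untreated peaks in bp (vertical axis) by class of −log10 q (horizontal axis), with and without an R848 overlap. Points are medians and bars run from the lower to the upper quartile; medians without an overlap lie between 365 and 381 bp, and those with one between 430.5 and 526 bp.

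The density of the peaks varied by 1.54 times over the autosomes. They numbered 0.547 per Mb on chromosome 16 to 0.845 per Mb on chromosome 18, with a median of 0.674. Overlapped strong peaks ranged from 0.959 per Mb on chromosome 12 to 1.56 on chromosome 17. Across the 19 autosomes, which share the 2 libraries, the density of protein-coding genes had a Pearson correlation of -0.11 (Spearman -0.08) with that of the untreated-only peaks and 0.67 (0.85) with that of the overlapped peaks. The share of strong peaks without an overlap was lowest on chromosome 8, at 82 of 273, and highest on chromosome 18, at 46.2%. On chromosome 18, 11 of the 74 peaks were at the genes Rbm22 and Hdac3.

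**Figure D4:**
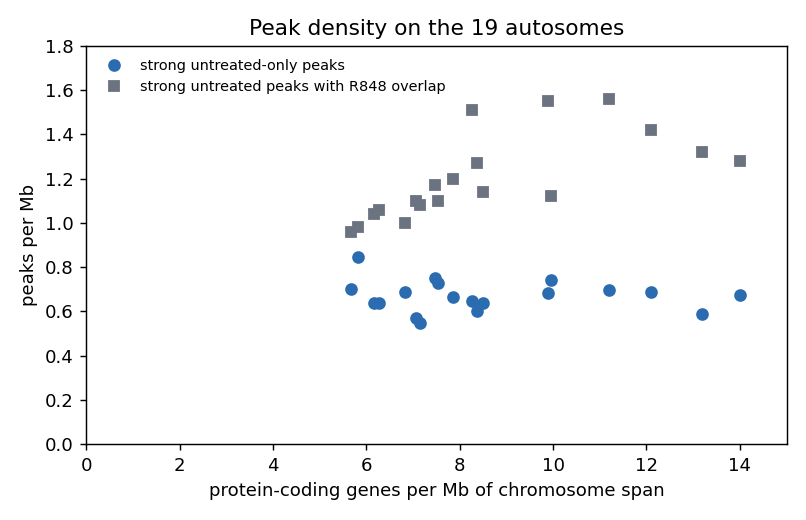
Strong untreated peaks per Mb (vertical axis) against protein-coding genes per Mb (horizontal axis), 1 point per autosome and kind of peak. The untreated-only points stay between 0.547 and 0.845 per Mb at every gene density, while those with an R848 overlap range from 0.959 to 1.56.

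Neighbouring peaks were few. The median distance from 1 untreated-only peak to the next was 502483 bp, and 39 of 1625 (2.40%) had another within 10 kb. The nearest R848 peak was a median of 24794 bp away. It was within 1 kb of the edges of 83 peaks (5.11%, interval 4.14 to 6.29), as it was for 5.99% of weaker untreated-only peaks. Measured from the summit, 4.25% of the peaks were within 1 kb of an R848 peak (3.37 to 5.34), against 2.90% of the autosomal bases outside R848 peaks, and 15.4% were within 5 kb, against 13.2% of those bases.

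The genes with the most peaks were Rbm22 and Hdac3. Rbm22, which encodes an RNA-binding splicing factor, held 6 of the peaks in a run of 7783 bp inside the gene (chr18:60564269-60572051). Their pileups were 29 to 53 tags and their folds 4.97 to 7.42, on a background of 4.96 to 7.18 tags, far above the library-wide 0.968. No R848 peak lay within that run, and the gene as a whole had 7 untreated peaks and 1 R848 peak. Hdac3, which encodes the histone deacetylase of the NCoR and SMRT corepressors, held 5 peaks (chr18:37940848-37952718) with 26 to 44 tags, folds of 4.52 to 10.1 and a background of 1.68 to 5.02 tags. The gene had 8 untreated peaks and 1 R848 peak, which lay outside the run. At both genes the local background of the untreated library was raised along with the peaks. Its part in the result was not tested.

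The genes Sulf1, Gm46913 and Gm21119 had 3 of the peaks each. Sulf1 had the peak of 70 tags and 2 inside the gene, of 14 and 15 tags. Gm46913 had peaks of 12 and 13 tags. Gm21119 had peaks of 37 to 50 tags on a background of 11.3 to 16.0, and because highly similar copies of this gene exist, its peaks are uncertain. Genes with 2 peaks included Plxdc2, Ccdc158, Pepd, a dipeptidase gene, Mbnl2, a splicing regulator gene, Map2k6, Myrfl and Vav3. In all, 1011 of 20665 autosomal protein-coding genes (4.89%) had at least 1 of the peaks within 100 kb, and 51 had 2 or more. The other 553 peaks had no gene end within that distance.

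The peaks were also counted at 17 lists of genes, which cover macrophage functions and the response to R848 and also cell cycle, chromatin and housekeeping genes. Of their 447 genes, 26 (5.82%) had one of the peaks, beside the 4.89% of all genes, and 4 lists had none. The lists with none were the NF-kB pathway, inflammatory cytokines and mediators, signalling downstream of the M-CSF receptor, and chemokine and other G-protein-coupled receptors. These 4 lists did have 42, 76, 52 and 48 untreated-only peaks of any strength. The lists had been drawn up with earlier results of these data known, and their counts are small.

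Among macrophage transcription factor genes, 1 of 28 (3.57%) had a peak, beside the 4.89% of all genes. The share was 7.69% in both the surface and identity list and the alternative activation list. The transcription factor peak lay 41434 bp from Fli1, an ETS factor gene, with 13 tags and a fold of 6.31. Of 26 surface and identity genes, Adgre1, which encodes an adhesion G-protein-coupled receptor used as a marker of murine macrophages, had a peak of 11 tags inside the gene (chr17:57463729-57464029), and Msr1, a scavenger receptor gene, had one of 15 tags 87043 bp away. In all, Msr1 had 10 untreated-only and 10 R848-only peaks in all. Among 26 genes of alternative activation, Arg1, which encodes arginase, had a peak inside the gene with 15 tags and a fold of 8.13 (chr10:24919232-24919575), 30748 bp from the nearest R848 peak. Retnla, a secreted marker of the same state, had one of 15 tags 11460 bp from the gene.

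Of 30 adhesion and cytoskeleton genes, 6 had one of the peaks, beside the 4.89% of all genes, with 7 peaks in all. The 7 were 3 when gene ends had to lie within 20 kb, and 2 with the limit on −log10 q raised to 10. Vav3, a guanine nucleotide exchange factor gene, had peaks of 19 and 15 tags inside the gene, with folds of 10.2 and 4.97. Wasf2, an actin nucleation gene, had 16 tags and a fold of 8.64. Dock1, Dock8 and Dock10, exchange factor genes for Rac and Cdc42, had 12 tags each with a fold of 6.60, and Itga6, an integrin subunit gene, had 11 tags. The Dock8 peak lay 1136 bp from a gene end. The distances of the others were 5941 to 66257 bp.

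Of 35 primary response and 30 signalling genes of Toll-like receptors, 2 and 1 had peaks (5.71% and 3.33%), beside the 4.89% of all genes. The 3 peaks of the first list and the 2 of the second were 1 and 0 with gene ends within 20 kb. With the limit on −log10 q raised to 10 they were 0 and 2. In Map2k6, which encodes a kinase that activates p38 downstream of Toll-like receptors, both peaks were inside the gene, with 17 and 22 tags and folds of 9.15 and 8.65 (chr11:110422119-110422474 and chr11:110467548-110468067). R848 peaks lay 4655 and 4104 bp from them, and 3 R848-only peaks were assigned to Map2k6. Near Klf6, an early-response transcription factor gene, 2 peaks of 12 tags lay 14676 and 56440 bp away, beside 11 R848-only peaks. A peak of 13 tags lay 75581 bp from Nr4a3, a nuclear receptor gene induced early by Toll-like receptors.

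Of 32 interferon response genes, 4 (12.5%) had peaks, beside the 4.89% of all genes, with 5 peaks in all. The 5 were 2 when gene ends had to lie within 20 kb, and 0 with the limit on −log10 q raised to 10. Oas1a, an antiviral oligoadenylate synthetase gene, had one inside the gene with 15 tags and a fold of 8.13 (chr5:120906023-120906267), 40158 bp from the nearest R848 peak and with no R848-only peak of its own. Near Ifnar2, which encodes a subunit of the type I interferon receptor, adjacent peaks of 19 and 15 tags lay about 30 kb from the gene. Irf1 and Irf2, genes of interferon regulatory factors, had peaks of 13 and 11 tags at 16711 and 30586 bp. The Irf1 site is an untreated-only peak beside 1 R848-only peak at the same gene.

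The remaining lists had 0 to 2 genes each. Besides Hdac3, the chromatin list had Chd7, a remodeller gene, with 14 tags at 31886 bp. The lipid list had Msr1 and Fabp5, a fatty acid carrier gene, with 13 tags. In the lysosome and phagocytosis list, Ncf4, an NADPH oxidase subunit gene, had 14 tags inside the gene and an R848 peak 603 bp away. Tnfsf4, a co-stimulatory ligand gene, had 12 tags, Ccnd2, a cyclin gene, 11 tags, and the housekeeping genes Reep5 and Ywhaz 14 and 12 tags.

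Of the 9 defining macrophage genes Spi1, Csf1r, Adgre1, Cd68, Itgam, Mertk, Cd14, Fcgr1 and Lyz2, 8 had an untreated peak, with Cd14 the exception, and 9 had an R848 peak. Among all autosomal genes, 55.2% had a weaker untreated-only peak and 48.6% an R848-only peak. The share of all genes with any peak is not given here, so nothing is read from the 8 and the 9. Strong untreated peaks were at 3 of the 9 genes, Adgre1, Mertk and Lyz2, and only that of Adgre1 lacked an R848 overlap. At 36 markers of T, NK, B, neutrophil, dendritic, erythroid, megakaryocyte, stromal and endothelial cells there were 38 untreated peaks, of which 0 were strong. Of all 68741 autosomal untreated peaks only 4522 were strong, so few were to be found among 38 and nothing is read from the 0.

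The 38 peaks within 1 kb of a gene end had 11 to 41 tags. The strongest was at Rsph9, a cilium gene (fold 11.6, 28 tags, 803 bp from a gene end), followed by an Rbm22 peak of 41 tags and by Ppcdc, a gene of coenzyme A synthesis, with 21 tags at 995 bp. Tas2r134, Tex36, Ap1m2, Them7 and Gnl1 had 20, 19, 21, 17 and 17 tags. At Kdm1a, which encodes the histone demethylase LSD1, the summit lay 387 bp inside the gene with 17 tags and a fold of 8.26 (chr4:136602223-136602720), 32041 bp from the nearest R848 peak. Gp9, Olfr8 and Zfp967 had 15, 16 and 16 tags, and the Zfp967 summit lay 47 bp before the start, within the bases printed above.

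Summits nearest to a protein-coding start in the promoter table were at Elk4, an ETS factor gene (12 tags, 12 bp before the start), Comtd1 (11 tags, 13 bp before it), Zfp967, Gm14308 (16 tags, 79 bp), Fanca, a DNA repair gene (11 tags, 112 bp), Bcl2l11, which encodes the pro-apoptotic BIM (14 tags, 118 bp), and Wdr5 (12 tags, 146 bp). The starts of Elk4, Gm14308, Fanca and Bcl2l11 in that table are inner ones and not the outermost start of the gene. The Bcl2l11 peak was not among those within 1 kb of a gene end and was not assigned to Bcl2l11. Zfp967 and Gm14308 are zinc finger genes with highly similar copies, so their peaks are uncertain. An R848 peak lay 783 bp from the Comtd1 peak and 1120 bp from the Bcl2l11 peak, and 10131 bp or more from the other 5. In all, 1.10% of 1551 peaks met a promoter window (interval 0.685 to 1.75), against 46.6% of overlapped and 33.6% of R848-only strong peaks. Among weaker untreated-only peaks the share was 0.946%, close to that of the strong ones. Chromosome 18 was left out of these counts because its windows were not used here. None of the 1625 peaks met a miRNA hairpin of the RefSeq table, while 10 of 2897 overlapped peaks did.

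The genes of these peaks often had R848-only peaks as well, counted at any strength down to the R848 list's lowest −log10 p of 2.01. Of the 1011 genes, 701 (69.3%) had at least 1 R848-only peak, against 48.6% of all autosomal genes and 60.1% of the 11416 genes with a weaker untreated-only peak. A strong R848-only peak was at 92 of them (9.10%), against 5.49% of all autosomal genes, and a strong untreated peak with an R848 overlap at 158 (15.6%). A peak of the latter kind was at 11.3% of all autosomal genes. A gene with more sequence nearest to it can be assigned more peaks of every kind. The amount of such sequence was not taken into account, so its part in these shares was not tested. At Vav3 there were 5 R848-only peaks, at Mbnl2 5, and at Rbm22, Hdac3 and Myrfl 0.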

How the data were processed

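ATAC-seq was measured in 1 untreated and 1 R848 library of wild-type BMDMs. Per the submitters' processing notes, bcl2fastq 2.19, Bowtie2 2.2.6 and MACS2 2.2.7.1 were used on mm10. The sources used here do not give settings, read filters, the treatment of duplicates or read totals.

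The deposited lists were made by the authors with MACS2, per the submitters' processing notes, and hold per peak a fold ratio over background, −log10 p, −log10 q and a score. The score was 10 times the −log10 p in 99.90% of untreated and 99.84% of R848 peaks. No count model or test was applied, since a group is 1 library. Pileup and background in tags were solved from fold = (pileup + 1)/(background + 1) and p as a Poisson tail. A solution within 0.1% was found for 99.93% of untreated and 99.89% of R848 peaks. Both lists had a smallest width of 200 bp. Equal extension of reads in both libraries, which the background ratio assumes, is not stated.

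Peaks overlapped if they shared 1 bp. Genes were the 20665 autosomal protein-coding genes of the RefSeq table (GRCm38.p6, the same build), and a peak was assigned to the gene whose end was closest to its summit, up to 100 kb. Shares of bases were taken over the span from the first to the last peak or gene of each autosome. Chromosome 18 had no promoter windows in the table used here. The steps ran in Python 3.11.15 (scipy 1.17.1, numpy 2.4.6, pandas 2.3.3, figures with matplotlib 3.10.9) and were tested on simulated data. Peaks, lists and motifs were chosen with earlier results of these data known. Named were the genes of the 20 strongest peaks, of the strongest at gene ends, of those with the most peaks and, in each list, of the strongest peaks, and the peaks at the limit. Genes of promoter windows and the rest of the adhesion list were named in addition, after their values had been seen. Alternatives varied the strength limit, the overlap, the measure of strength, the chromosomes and the gene assignment.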

Additional observations from a re-analysis of the deposited data

Results flagged for a closer look

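Strong untreated-only peaks were also present on the sex chromosomes, which the comparisons above do not use, and they are given here because of that. On X, 95 of 149 strong untreated peaks had no R848 overlap (63.8%, Wilson interval 55.8 to 71.0), and on Y 30 of 49 (61.2%, 47.2 to 73.6), against 35.9% on the autosomes. The untreated list held 4556 peaks on X and 3763 on Y, and the R848 list 820 and 184. The sex of the animals is not given in the sources used here, and what sets these numbers was not tested.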

How the results depend on the processing

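The limit on strength moved the counts most. At a −log10 q of at least 3 there were 5652 untreated-only peaks (54.2% of those as strong), 34.9% of them inside genes, 456 genes with 2 or more and 90 at the listed genes instead of 34. At 10 or more there were 258 (20.1%), 46.5% of them inside genes, 3.49% within 1 kb of a gene end, 0.420% at a promoter window, 3 genes with 2 or more and 7 at the listed genes. The share without an overlap was 40.7% against R848 peaks with a −log10 q of at least 1.3 alone, 37.8% with strength by fold, and 37.5% without peaks of raised background, an alternative added after seeing the data. Near a gene end meant 0.985% of the peaks within 500 bp and 4.06% within 2 kb. An R848 peak was within 1 kb of 1.97% of the peaks when a gap of up to 500 bp counted as an overlap, and within 5 kb of 16.1%. With gene ends within 20 kb, 10 genes had 2 or more peaks, 18 peaks were at the listed genes and 47.7% of assigned peaks shared a gene with an R848-only peak. Within 100 kb the last share was 69.6% of assigned peaks, and the share of all genes at 20 kb is not given here. With peaks assigned to the gene that holds the summit, 85 genes had 2 or more and 74.2% shared a gene with an R848-only peak. Under every alternative run for it, the share near gene ends lay between 0.985% and 4.06%. The tandem repeat share was 29.4% for repeats of at least 40 or 100 bases and 18.2% in the 11 windows that hold a summit. A pileup of 11 to 15 tags gives single peaks low precision. Sites under 5 tags in the R848 library are not seen, and a higher local background raises the number of tags needed for a call. No paired analysis was possible because each group is 1 library.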
